A study of Mus musculus with 4 samples.

Results

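Interferon-stimulated genes and the guanylate-binding GTPases that interferon induces were followed in bone marrow neutrophils of wild-type mice given amyloid-beta 40 (Aβ40) or DMSO. The 32 genes were taken by name from the authors' gene count table, which lists 54532 genes, and all 32 symbols were found in it. All 32 also passed the filter on low counts, as did 13479 genes in all. The study has 2 libraries from cells treated with Aβ40 (20 µg/ml, 4 h), a fragment of the amyloid precursor found in Alzheimer plaques and vessel walls, and 2 libraries from cells given DMSO, a solvent. Per the series' description, the question was how the peptide triggers neutrophil extracellular traps, webs of chromatin that these cells cast out. No strain, age or sex is used here, and the labels do not state if libraries that share a treatment were made from separate mice or cultures. All p-values therefore rest on the spread between these samples alone, and that spread may be technical.

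Interferons are secreted proteins that warn cells of infection. Type I interferons act through a receptor whose kinases activate STAT factors, among them STAT2, which with IRF9 is part of ISGF3, the factor that binds the interferon-stimulated response element (ISRE) of its target genes. Interferon-gamma acts through another receptor, and its target genes carry the gamma-activated site (GAS). The targets block virus growth, detect viral RNA, renew the signalling factors themselves or, in the case of the guanylate-binding proteins (GBPs) and immunity-related GTPases (IRGs), attack the vacuoles in which bacteria and parasites live. Neutrophils express many of these genes, and their level is often read as a sign of exposure to interferon.

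Promoters of 25 of the 32 members were found in the RefSeq table of build GRCm38.p6, as 31 windows. Each runs from 250 bases before a gene's first base in RefSeq to 50 bases after it. That base can differ from the gene start in the authors' annotation, as in Stat2, and distances are counted from it. The entries not found were those of Mx1, Mx2, Usp18, Rtp4, Parp9, Parp14 and Dhx58. The ISRE core was searched as GAAA, 2 bases of any kind and GAAA again, and the GAS core as TTCNNNGAA, on both strands, and matches may overlap. Of the members' windows, 16 held an ISRE match (51.6%), against 3.44% of 32851 windows of all genes. A GAS match stood in 7 of the members' windows (22.6%), against 8.3% of all windows. Every GBP had an ISRE match in at least 1 window, as did Igtp, Irgm1 and Irgm2 among the IRGs, and Ifih1 and Ddx60 among the RNA sensors. Both motifs together were found in 4 members, namely Gbp5, Gbp7, Igtp and Irgm2. A match of letters is a description and not a shown binding site.

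Of the windows, 15 held no ISRE match, and Ifit2, Isg20 and Ifi35 had a GAS match alone. The 5 windows shown were picked to print the kinds of ISRE match seen, alone, repeated or beside a GAS match, 5′ to 3′ on the gene's strand, with ISRE and GAS letters in capitals. Isg15 had 3 overlapping ISRE matches that start 78, 72 and 66 bases before the gene, and Ifit1 had 2. Stat2 had a single one, 222 bases before its start in RefSeq. Gbp7 had 2 GAS matches followed by an ISRE match, and in Igtp the GAS match, 45 bases before the gene, lay just ahead of the ISRE match, at 34 bases.
Isg15, chr4:156200769-156201068, minus strand: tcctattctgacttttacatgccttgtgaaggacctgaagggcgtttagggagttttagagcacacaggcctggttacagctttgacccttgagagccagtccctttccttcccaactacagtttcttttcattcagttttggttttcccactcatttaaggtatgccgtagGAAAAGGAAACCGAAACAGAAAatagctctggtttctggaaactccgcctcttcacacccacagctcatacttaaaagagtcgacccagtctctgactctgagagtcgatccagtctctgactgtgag
Ifit1, chr19:34640639-34640938, plus strand: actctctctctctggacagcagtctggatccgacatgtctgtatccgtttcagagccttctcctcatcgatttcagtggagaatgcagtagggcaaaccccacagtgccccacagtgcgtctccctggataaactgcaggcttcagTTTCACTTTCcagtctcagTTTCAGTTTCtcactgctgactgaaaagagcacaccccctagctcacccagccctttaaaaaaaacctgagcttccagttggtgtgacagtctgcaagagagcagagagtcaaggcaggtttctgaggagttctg
Stat2, chr10:128270248-128270547, plus strand: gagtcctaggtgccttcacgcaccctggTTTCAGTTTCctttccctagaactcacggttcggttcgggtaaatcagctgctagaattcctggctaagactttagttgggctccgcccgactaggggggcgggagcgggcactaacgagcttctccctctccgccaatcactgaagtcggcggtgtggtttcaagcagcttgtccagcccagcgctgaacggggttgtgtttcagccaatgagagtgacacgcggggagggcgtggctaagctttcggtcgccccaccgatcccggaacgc
Gbp7, chr3:142530086-142530385, plus strand: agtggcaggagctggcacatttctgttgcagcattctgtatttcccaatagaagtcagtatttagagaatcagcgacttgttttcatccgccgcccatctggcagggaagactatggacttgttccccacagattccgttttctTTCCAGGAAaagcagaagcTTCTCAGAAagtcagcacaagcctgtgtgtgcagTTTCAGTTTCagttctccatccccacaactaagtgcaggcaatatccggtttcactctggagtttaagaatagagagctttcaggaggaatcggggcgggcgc
Igtp, chr11:58199306-58199605, plus strand: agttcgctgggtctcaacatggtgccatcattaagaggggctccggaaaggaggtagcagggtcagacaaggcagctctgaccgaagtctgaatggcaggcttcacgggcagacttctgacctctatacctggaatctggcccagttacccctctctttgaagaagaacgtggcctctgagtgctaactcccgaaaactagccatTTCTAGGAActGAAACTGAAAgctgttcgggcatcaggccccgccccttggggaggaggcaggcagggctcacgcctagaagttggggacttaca

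The members were abundant in both groups. On the FPKM scale (fragments per gene length and library depth, as deposited), which allows levels of different genes to be compared, the median member had a mean of 44.3 FPKM, against 3.81 FPKM for the median gene tested. All 32 members lay above that median gene, 17 were among the top 10% of genes tested and 9 among the top 5%. Ifit1, whose product binds viral RNA with an unfinished cap, led with a mean of 386 FPKM and rank 136. Isg15, a ubiquitin-like protein that is joined to other proteins, followed at 294 FPKM, and Rsad2, which makes a chain-ending nucleotide against viral polymerases, at 249.997 FPKM. The most abundant member of the GTPases was Ifi47, an IRG, at 180 FPKM, and that of the GBPs was Gbp2 at 60.1 FPKM. The sensors and factors lay lower, from 14.98 FPKM for Ifih1 to 46.6 FPKM for Irf7. The lowest member was Ifi44, at 3.86 FPKM. Since bulk RNA was measured, fewer cells of a type and less RNA per cell cannot be told apart, and which cells of the preparation carry these transcripts was not measured.

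**Figure D1:**
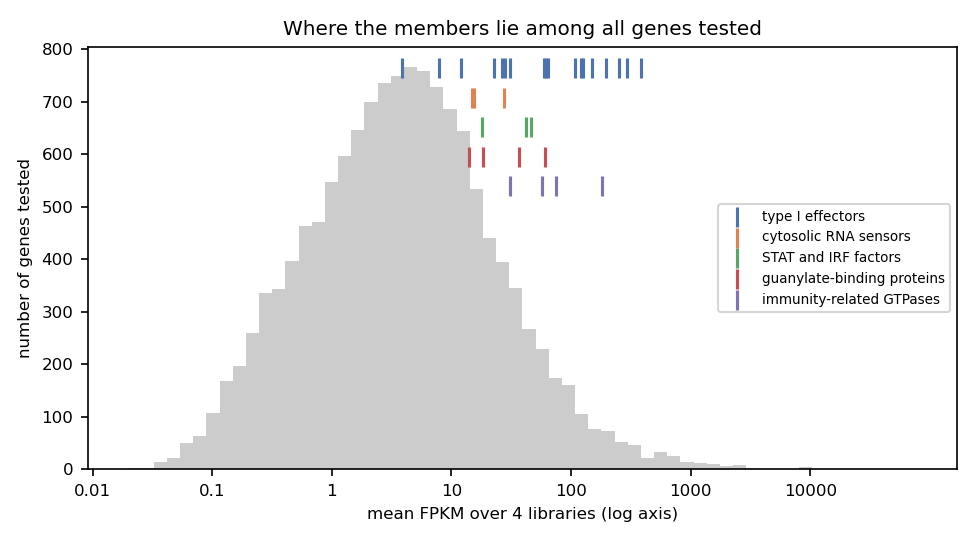
Mean FPKM over the 4 libraries on a log axis, for all 13479 genes tested (grey histogram, number of genes on the vertical axis) and for the 32 members (coloured ticks, a row for each role). The members run from 3.86 FPKM for Ifi44 to 386 FPKM for Ifit1, all above the median gene tested at 3.81 FPKM.

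None of the 32 members passed the test between Aβ40 and DMSO. The edgeR quasi-likelihood test, with Benjamini-Hochberg adjustment over all genes tested, called 0 members higher and 0 lower at an adjusted p under 0.05, and adjusted p-values ran from 0.427 to 0.999. Over all genes tested it called 0.126% higher and 0% lower. At an unadjusted p under 0.05 there were 0 members as well, against 12.2% of all genes tested (6.51% higher and 5.72% lower). DESeq2 also called 0 members, beside 0.896% of the genes it tested called higher and 0.343% lower. Limma on FPKM called 0 of all genes tested, so its 0 members carry no information. The log2 fold changes (Aβ40 minus DMSO) lay between -0.39 for Stat2 and 0.39 for Parp9, with 14 above 0 and 18 below. Their median was -0.03, against 0.01 for all genes tested.

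The intervals bound what these libraries leave possible. For all 32 members the 95% confidence interval of the log2 fold change, not adjusted for the number of genes, lay within -1 and 1, that is, within a 2-fold change either way. The lowest bound was -0.81, for Stat2, and the highest 0.83, for Ifi44. Intervals this narrow were found for 56.5% of all genes tested, and for 89.9% of the 5525 genes tested with a mean at or above that of the scarcest member, 23.9 CPM (a level by library depth, scaled by TMM and not by gene length). The count was 27 members without Aβ40 1 and 24 without Aβ40 2, where a single library stands for its group.

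**Figure D2:**
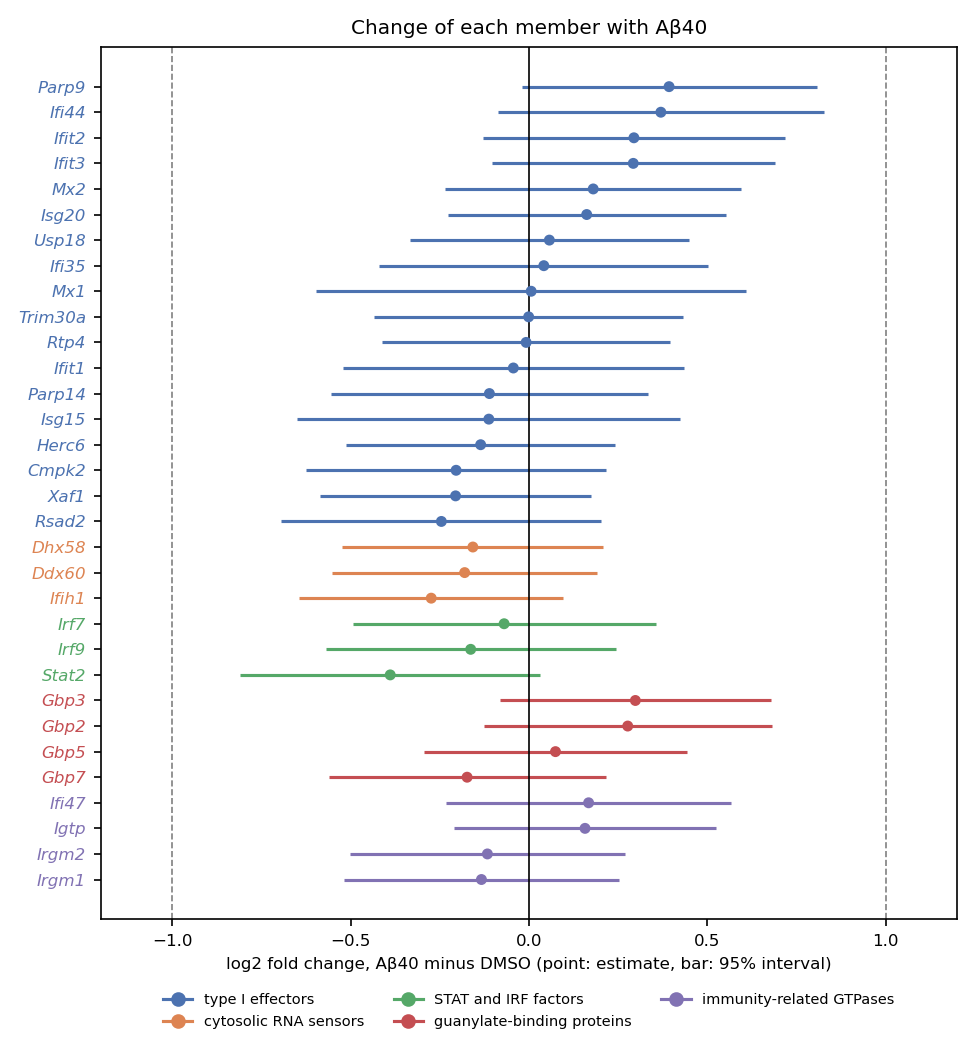
Log2 fold change of each member, Aβ40 minus DMSO, with its 95% confidence interval from the edgeR quasi-likelihood fit, grouped and coloured by role. All intervals lie between the dashed lines at -1 and 1, and all cross 0.

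Differences between the groups overlapped in size with those between libraries of the same group, but reached higher. Over the members, the median absolute log2 difference was 0.11 between the Aβ40 libraries and 0.17 between the DMSO libraries. Between an Aβ40 and a DMSO library it ran from 0.16 to 0.26. Over all genes tested it was 0.21 between the Aβ40 libraries and 0.31 between the DMSO libraries, and ran from 0.27 to 0.35 between the groups. Summed over the 32 members, the level was 8316 and 7552 CPM in Aβ40 1 and 2, against 8094 and 8180 CPM in DMSO 1 and 2, so the sums of the groups overlapped. In 9 members the Aβ40 values were both above the DMSO values and in 11 both were below, which is 20 of 32, while 23.2% and 21.9% of all genes tested did so. With 2 libraries against 2, such a separation carries little weight for a single gene, and none of the 20 passed the test.

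**Figure D3:**
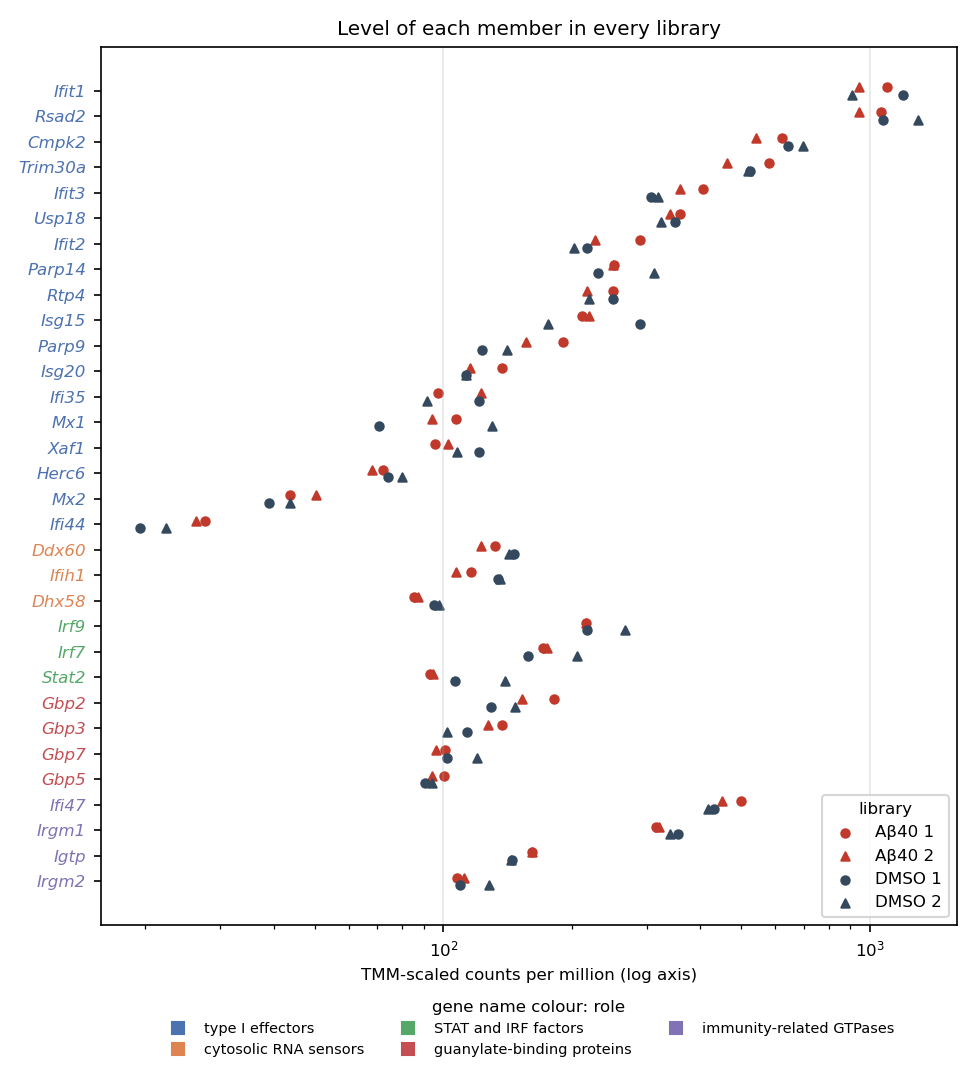
TMM-scaled CPM of each member in every library on a log axis, not divided by gene length, with Aβ40 libraries in red above the DMSO libraries in dark blue. In Parp9 and Ifi44 both Aβ40 points lie right of both DMSO points, in Ifih1 and Stat2 both lie left, and in Mx1 and Isg15 the DMSO points enclose them.

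The type I effectors, 18 genes that act on viral RNA, on proteins of the virus or on signalling, had 9 log2 fold changes above 0 and 9 below, with a median of 0.003. The smallest p among them was that of Parp9, which forms a complex with the ubiquitin ligase DTX3L in the response to interferon and to DNA damage (ENSMUSG00000022906, mm10 chromosome 16, 35938470 to 35972605). Parp9 was at 191 and 156 CPM in the Aβ40 libraries, against 123 and 141 CPM in the DMSO libraries. The groups did not overlap, yet the log2 fold change, 0.39 with an SE of 0.18, missed the threshold (adjusted p = 0.427, edgeR). Parp9 overlaps Dtx3l on the opposite strand by 682 bases, and without known strandedness reads there may not have been told apart. Dtx3l itself was at 154 and 125 CPM with Aβ40, against 106 and 179 CPM with DMSO.

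Ifi44, a cytoplasmic protein induced by type I interferon (ENSMUSG00000028037, chromosome 3, 151730922 to 151749960), was at 27.6 and 26.3 CPM with Aβ40, against 19.4 and 22.3 CPM with DMSO. Its log2 fold change was 0.37 (SE 0.20). The IFIT genes lie side by side on chromosome 19, and 2 of the 3 were on the higher side. Ifit3, a partner of IFIT1 (ENSMUSG00000074896, chromosome 19, 34583531 to 34588731), was at 406 and 359 CPM with Aβ40, against 307 and 318 CPM with DMSO, a log2 fold change of 0.29 (SE 0.18). Of its annotated 100-base words, 31.7% also occur in transcripts of its near copy Ifit3b, so its count is uncertain, and Ifit3b was at -0.05 (SE 0.17). Ifit2, which binds RNA and promotes cell death, was at 0.29 (SE 0.19). Ifit1 (ENSMUSG00000034459, chromosome 19, 34640871 to 34650009) was at 1096 and 943 CPM with Aβ40, against 1195 and 907 CPM with DMSO. Here the DMSO libraries enclosed the Aβ40 libraries, and the log2 fold change was -0.04 (SE 0.21).

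Rsad2 and Cmpk2 are neighbours on chromosome 12 and supply the same antiviral reaction, Cmpk2 as the nucleotide kinase. Both lay below 0 by a similar amount. Rsad2 averaged 1001 ± 83.6 CPM with Aβ40 and 1186 ± 157 CPM with DMSO, and Cmpk2 averaged 583 ± 57.9 CPM with Aβ40 and 671 ± 37.9 CPM with DMSO (SD, n = 2 each). Their log2 fold changes were -0.25 (SE 0.20) and -0.20 (SE 0.19). Usp18, which removes Isg15 from proteins and silences the type I receptor, was at 350 ± 13.4 CPM with Aβ40 and 337 ± 17.5 CPM with DMSO (SD, n = 2 each), and its log2 fold change was 0.06 (SE 0.17). Isg15 was at 211 and 220 CPM with Aβ40, against 290 and 176 CPM with DMSO, so that its DMSO libraries again lay on either side of both Aβ40 libraries.

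Of the remaining effectors, Trim30a, which limits Toll-like receptor signalling, was at -0.00075 (SE 0.19), and Rtp4, a receptor chaperone that also acts on viral replication, at -0.0077 (SE 0.18). Herc6, the ligase that attaches Isg15 in mice, was at -0.14 (SE 0.17) and Xaf1, an antagonist of the apoptosis inhibitor XIAP, at -0.21 (SE 0.17). Rtp4 and Herc6 each share annotated 100-base words (9.28% and 10.3%) with an overlapping gene on the same strand, so their counts are uncertain. Parp14, an ADP-ribosyl transferase, was at -0.11 (SE 0.20). Isg20, an exonuclease that degrades viral RNA, was at 0.16 (SE 0.17), and Ifi35, a partner of Nmi, at 0.04 (SE 0.20). The dynamin-like GTPases Mx1 and Mx2, which trap viral nucleocapsids, were at 0.01 (SE 0.27) and 0.18 (SE 0.18), and the authors' table annotates Mx2 as a polymorphic pseudogene. The sign of Mx1 turned with the scaling, to -0.0022 with median-ratio scaling and -0.072 with library size only.

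The RNA sensors and the STAT and IRF factors, 6 genes in all, were each below 0, with a median of -0.17, and 5 of the 6 had both Aβ40 values below both DMSO values, as did 21.9% of all genes tested. Without DMSO 2 they were not all below 0, with Irf7 at 0.13, Irf9 at -0.018 and Stat2 at -0.19. Ifih1 encodes MDA5, the sensor of long double-stranded RNA (ENSMUSG00000026896, chromosome 2, 62595798 to 62646255). It was at 116 and 107 CPM with Aβ40, against 134 and 136 CPM with DMSO, and its log2 fold change was -0.27 with an SE of 0.16 (adjusted p = 0.532, edgeR). Dhx58, which encodes the related sensor LGP2, was at 85.1 and 87.4 CPM with Aβ40, against 94.9 and 97.5 CPM with DMSO. Ddx60, a helicase that aids these sensors, was at 132 and 122 CPM with Aβ40, against 146 and 142 CPM with DMSO. In the 3 sensors the groups did not overlap, but the differences were small, at -0.16 (SE 0.16) for Dhx58 and -0.18 (SE 0.16) for Ddx60.

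Stat2, the member of ISGF3 that type I interferon activates (ENSMUSG00000040033, chromosome 10, 128270559 to 128292849), was the lowest of all members. It was at 93.2 and 94.5 CPM with Aβ40, against 107 and 139 CPM with DMSO, and its log2 fold change was -0.39 with an SE of 0.19 (adjusted p = 0.437, edgeR). It was the single member called under any alternative, and only without DMSO 1, when DMSO 2 alone stood for its group (log2 fold change -0.57, adjusted p = 0.0304, edgeR) and 8.11% of all genes tested were called. Without DMSO 2 its log2 fold change was -0.19 (adjusted p = 0.6, edgeR). Over all alternatives the adjusted p of Stat2 from edgeR, DESeq2 or limma ran from 0.0304 to 0.999. Irf9, the DNA-binding part of ISGF3, was at 216 and 216 CPM with Aβ40, against 217 and 266 CPM with DMSO, and Irf7, which switches on interferon-alpha genes, at 172 and 175 CPM with Aβ40, against 158 and 206 CPM with DMSO. Both were highest in DMSO 2, as was Stat2, and for Irf9 the groups were barely apart. Log2 fold changes were -0.16 (SE 0.18) for Irf9 and -0.07 (SE 0.19) for Irf7.

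The interferon-gamma-inducible GTPases showed values on both sides of 0, 5 above and 3 below, with a median of 0.12. The 4 GBPs are neighbours within 144 kb of chromosome 3. Gbp3 was at 137 and 127 CPM with Aβ40, against 113 and 102 CPM with DMSO, and Gbp2 at 182 and 153 CPM with Aβ40, against 129 and 147 CPM with DMSO. Both genes had higher values in each Aβ40 library, at log2 fold changes of 0.30 (SE 0.17) and 0.28 (SE 0.18). Gbp7, which lies between Gbp5 and Gbp3, was at -0.17 (SE 0.17). Gbp5, which in macrophages promotes inflammasome assembly, was at 0.07 (SE 0.16). Of the annotated 50-base words of Gbp7, 12.7% also occur in other genes, mostly a pseudogene within its body, so its count is uncertain.

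Among the IRGs, Igtp, Irgm1 and Irgm2 restrain the effector IRGs on the cell's own membranes. Igtp was at 161 and 161 CPM with Aβ40, against 145 and 144 CPM with DMSO, so that both pairs were nearly level, with a log2 fold change of 0.16 (SE 0.16). Irgm1 was at 315 and 320 CPM with Aβ40, against 356 and 340 CPM with DMSO, and lay at -0.13 (SE 0.17). Irgm2, whose gene body overlaps that of Igtp on the same strand by 7974 bases, was at -0.12 (SE 0.17). Of the annotated 50-base words of Igtp, 11.8% also occur in Irgm2, so the counts of Igtp and Irgm2 are uncertain. Ifi47 was at 500 and 451 CPM with Aβ40, against 430 and 416 CPM with DMSO, at 0.17 (SE 0.18). Olfr56 covers the whole gene body of Ifi47 on the same strand, so reads may have been shared. Thus 9 of the 18 effectors, 5 of the 8 GTPases and 0 of the 6 sensors and factors were above 0, a difference between roles that was not tested.

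**Figure D4:**
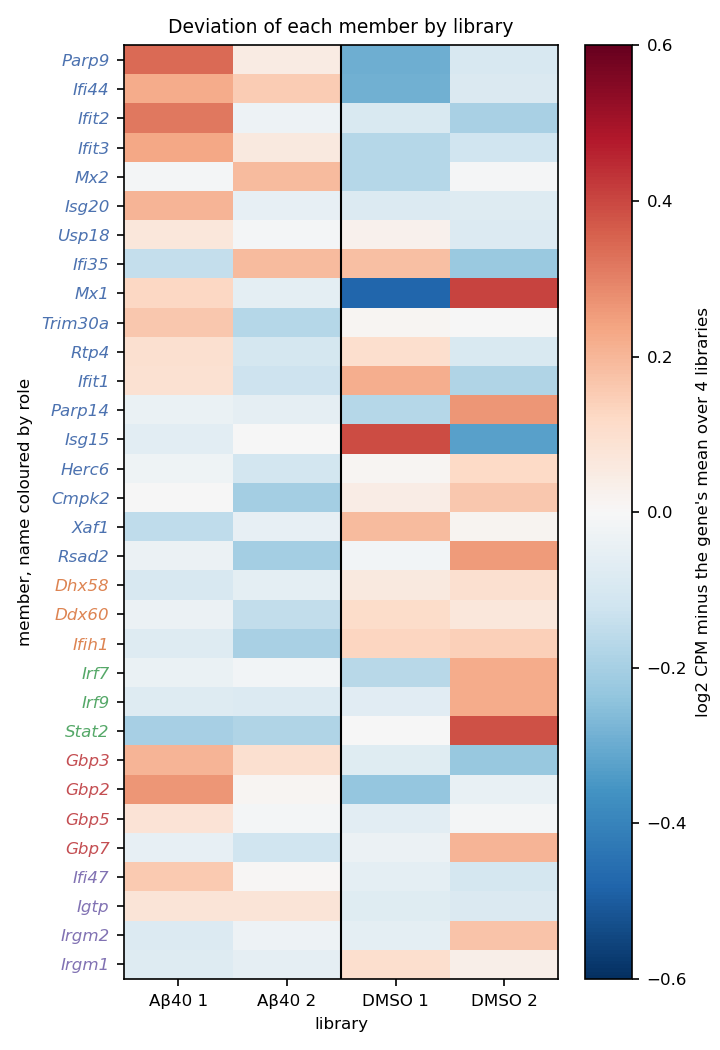
Log2 CPM of each member minus its mean over the 4 libraries (colour), with the Aβ40 libraries left of the DMSO libraries and members grouped by role. The strongest contrast is that of Mx1 in the DMSO columns, where it differs between the pair by 0.88 on the log2 scale, while the sensors are slightly lower in both Aβ40 columns.

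The spread within DMSO was wide for some members. Mx1 was at 107 and 94.2 CPM with Aβ40, against 70.5 and 129.7 CPM with DMSO, the largest gap within a pair. Longer members tended to be higher in DMSO 2. Over the 32 members, Spearman's rho between gene length and the log2 difference of DMSO 2 minus DMSO 1 was 0.48, against 0.22 over the 13479 genes tested, and between length and the log2 fold change it was -0.43, against -0.15. These correlations are across genes of the same libraries, so genes are not independent replicates, and the part of length in the low values of the sensors and factors was not tested.

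The ligands of the pathway were scarce. Of 21 interferon genes listed, 17 had 0 counts in all 4 libraries, among them nearly all interferon-alpha genes, and a count of 0 allows up to 3 counts, between 0.157 and 0.175 CPM in these libraries (counting error only). Ifnb1, the interferon-beta gene, had 24 and 6 counts with Aβ40, against 8 and 8 counts with DMSO, and was too low to be tested. Ifng, the gene of interferon-gamma, had 14 and 18 counts with Aβ40, against 9 and 1 counts with DMSO. It passed the filter on low counts through its Aβ40 libraries alone, so its change is no evidence of induction. The interval of its log2 fold change ran from -0.49 to 3.87. Of 9 receptors and their kinases, none was called by edgeR, and the median was -0.09. Ifngr1, the most abundant at 61.9 FPKM, was at 226 and 188 CPM with Aβ40, against 118 and 180 CPM with DMSO. Ifnlr1, the receptor chain for lambda interferons, was at 30.2 and 33.7 CPM with Aβ40, against 47.6 and 55.2 CPM with DMSO, and lay at -0.68 with an SE of 0.19 (adjusted p = 0.269, edgeR).

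In the other lists of the pathway edgeR called no gene either as first set up, with its filter on low counts and all 4 libraries. Of 14 other STAT and IRF factors and brakes, 7 were above 0 and 7 below, with a median of 0.001. Irf4, a factor of lymphocyte differentiation, was at 31.3 and 28.6 CPM with Aβ40, against 13.2 and 14.6 CPM with DMSO, and lay at 1.11 with an SE of 0.21 (adjusted p = 0.118, edgeR), and Irf2, which can repress interferon targets, was at -0.51 (SE 0.17). Of 50 other type I targets tested, 26 were above 0 and 24 below, with a median of 0.05. Ifi27l2a, a small interferon-induced membrane protein, and Phf11b, a PHD finger protein, were at 1.01 (SE 0.24) and 0.85 (SE 0.21). DESeq2 called Irf4, Ifi27l2a and Phf11b higher (Benjamini-Hochberg adjusted p = 0.00853, 0.0224 and 0.0430), where it called 0.896% of the genes it tested higher and 0.343% lower. Without the filter edgeR called these 3 higher as well, beside Samd9l, which restrains viral translation, at 0.71, and called Parp10, an ADP-ribosyl transferase, lower at -0.70, where 1.17% of all genes were called.

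The other interferon-gamma-inducible GTPases were 16 tested genes that hold scarcer members of the same families. Of these, 15 had log2 fold changes above 0, with a median of 0.53, beside 0.12 for the 8 GTPases among the members. The list held 19 genes, and those not tested were too low. The scarcest tested gene had a mean of 0.17 FPKM. A gene so scarce can pass the filter through its Aβ40 libraries alone, as Ifng did. The count above 0 and the median may partly follow from the filter, which was not tested. The sets differ in level, at a median of 46.6 FPKM for those 8 and 1.81 FPKM for the 16. All 8 intervals lay within -1 and 1, but only 4 of the 16, whose bounds reached -1.57 and 3.05. With the filter and all libraries edgeR called 0 of the 16. At an unadjusted p under 0.05, 5 of them were higher, as were 6.51% of all genes tested. Gbp4 was at 21.1 and 24.0 CPM with Aβ40, against 9.11 and 12.96 CPM with DMSO, a log2 fold change of 1.03 (SE 0.25). Tgtp2, an IRG first found in T cells, was at 45.8 and 32.01 CPM with Aβ40, against 21.3 and 21.02 CPM with DMSO. Without the filter edgeR called both higher (adjusted p = 0.0139 for Gbp4 and 0.0247 for Tgtp2), and it did so again without DMSO 1 (0.0375 and 0.012) and without DMSO 2 (0.000152 and 0.0056), where it called 7.87% of all genes. Tgtp1 and Tgtp2 are near-identical copies, so their counts are uncertain. Of 17 other interferon-gamma targets tested, 7 were above 0 and 10 below, with a median of -0.15. Tap2, a chain of the peptide transporter for MHC class I, was at 45.6 and 53.3 CPM with Aβ40, against 85.6 and 83.8 CPM with DMSO (log2 fold change -0.78, SE 0.17, adjusted p = 0.191, edgeR), and was called lower by DESeq2 (adjusted p = 0.0294) and by edgeR without the filter (adjusted p = 0.0242). Tapbp, which loads the peptides, was at -0.43 (SE 0.18).

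**Figure D5:**
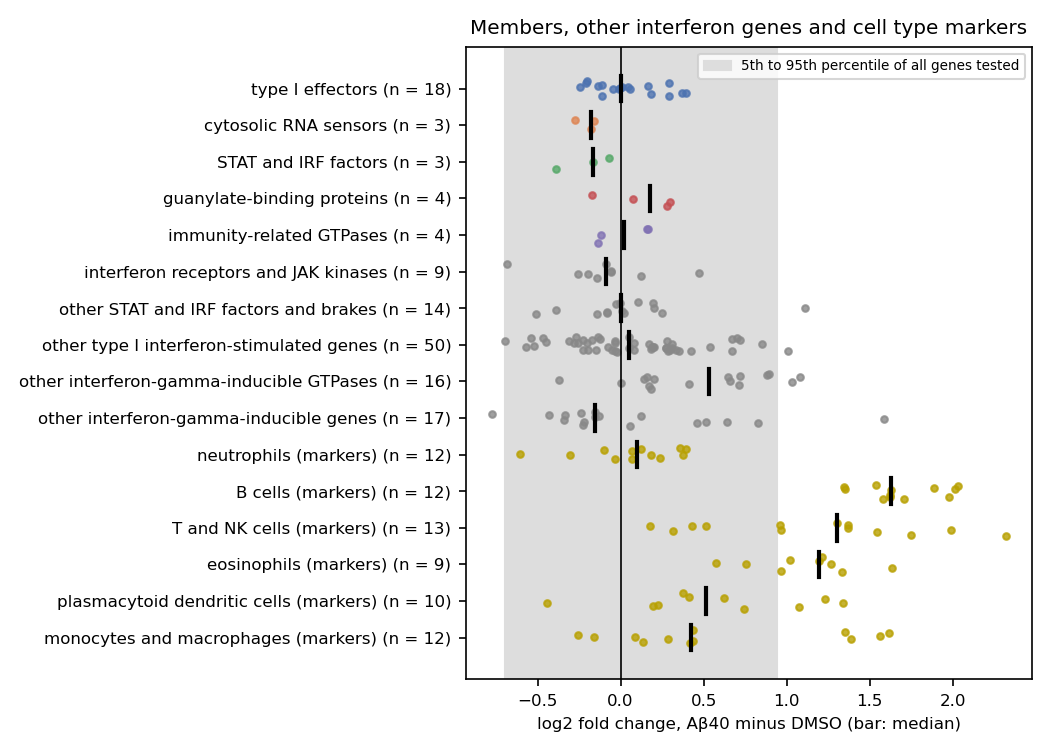
Log2 fold changes, Aβ40 minus DMSO, of each tested gene of the members' 5 roles (coloured), of 5 lists of other interferon genes (grey) and of 6 lists of cell type markers (yellow), with the median as a black bar. The members lie inside the shaded 5th to 95th percentile range of all genes tested (-0.70 to 0.94), while the B cell markers have a median of 1.63.

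Tested markers of B cells, eosinophils and T and NK cells were above 0 throughout. Summed B cell markers stood at 516 and 524 CPM with Aβ40, against 156 and 165 CPM with DMSO. All 12 were above 0 and 6 were called higher, where edgeR called 0.126% of all genes tested higher and 0% lower. All 9 eosinophil markers were above 0, with 1 called, at sums of 3641 and 3709 CPM with Aβ40, against 1675 and 1388 CPM with DMSO. All 13 tested T and NK cell markers were above 0 too, with 1 called. That list summed to 178 and 188 CPM with Aβ40, against 122 and 117 CPM with DMSO. Its scarcest tested marker had a mean of 0.131 FPKM. A marker so scarce can pass the filter on low counts through its Aβ40 libraries alone. The count of T and NK cell markers above 0 may partly follow from the filter, which was not tested. Of the markers of plasmacytoid dendritic cells, the main makers of interferon-alpha, 9 of 10 were above 0 and 0 called, at 370 and 372 CPM with Aβ40, against 273 and 243 CPM with DMSO, and of 12 monocyte and macrophage markers 10 were above 0 and 0 called, at 3960 and 3400 CPM with Aβ40, against 2977 and 2871 CPM with DMSO. Of 8 erythroid markers 4 were above 0 and 4 below, with 0 called, at 3573 and 3712 CPM with Aβ40, against 5097 and 2161 CPM with DMSO. In these 6 lists no tested marker was at 0 in all libraries. Of the 12 neutrophil markers 8 were above 0 and 4 below, with 0 called, at 140276 and 133259 CPM with Aβ40, against 135965 and 95718 CPM with DMSO. The part of these cells in the values of the members, of Irf4 and of the scarcer GTPases was not tested. Total counts ran from 17212264 to 19524125 per library, and chi-square per degree of freedom came to 15.6 for the Aβ40 pair and 51.4 for the DMSO pair, so neither pair was the same library deposited again.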

How the data were processed

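Libraries of total RNA were grouped by the treatment in their titles. Build mm10, featureCounts 1.5.0-p3 and HISAT2 2.0.5 are listed, per the submitters' processing notes, with no role or order. The annotation release was not given in the sources used here, nor was strandedness. The authors deposited whole-number read counts per gene and FPKM, which equal counts over gene length and over a library size proportional to the DESeq2 median-ratio size factor, as checked on the values.

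Counts of the genes that filterByExpr kept were scaled by TMM and tested with edgeR 4.0.16 in R 4.3.3 (glmQLFit and glmQLFTest, 2-sided, 2 residual degrees of freedom plus 6.88 prior ones, biological coefficient of variation 0.210) with Benjamini-Hochberg adjustment over all genes. The test was checked on simulated counts. Alternatives used DESeq2 1.42.0, limma 3.58.1 on log2(FPKM + 1) and log2(FPKM + 0.1), other scalings and filters, a replicate block, and leaving out each library.

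Members and lists were chosen with earlier results of these data known. Values in every library were given for the 3 effectors and the 2 members of each other role with the smallest p, and for each role's most abundant member. Of each other interferon list, called genes were named, else the 2 with the smallest p, and cell type markers were given as sums and counts. Other genes given with values were chosen after those were seen. GENCODE M21 transcripts served to count shared words. Of the genes listed, 1 symbol (Mnda) was not matched. Counting limits do not cover variation between cultures.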

Additional observations from a re-analysis of the deposited data

How the results depend on the processing

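No member was called under any alternative except Stat2, lower without DMSO replicate 1. Over 13 alternatives, 397 of 416 recomputed log2 fold changes of members kept their sign and their side of the threshold, and 23 of 32 members kept their sign throughout. Mx1 turned to -0.0022 with median-ratio scaling, -0.072 with library size only, -0.0077 with DESeq2 and -0.0013 without a filter. When libraries were left out in turn, values ran from -0.37 to 0.50 for Mx1, -0.24 to 0.17 for Ifit1, -0.43 to 0.29 for Isg15, -0.11 to 0.091 for Rtp4, -0.18 to 0.14 for Trim30a, -0.15 to 0.26 for Ifi35, -0.0034 to 0.11 for Usp18, -0.31 to 0.12 for Parp14 and -0.25 to 0.13 for Irf7. The median of the members ran from -0.089 (without Aβ40 1) to 0.026 (without DMSO 1), and members called lower from 0 to 1. Genes called over the whole table numbered 17, against 130 with DESeq2, 255 without a filter, 0 with limma on FPKM at either pseudocount, and from 0 (without either Aβ40 library) to 1093 (without DMSO 1) when a library was left out, where the lone library is assumed to vary like the other group. The cause was not tested. A replicate block gave 27 calls, none of a member. The numbers in the labels are not stated to pair samples, and same-numbered deviations correlated at -0.23. With the numbers crossed, an alternative added after seeing the data, as was the count of intervals, there were 721 calls, none of a member. Among other interferon genes, in lists of 1, 9, 14, 50, 16 and 17 tested genes, edgeR called 0. It called 8 without a filter, where 1.17% of all genes were called. With the numbers crossed it called 13, beside those 721 of 13479 genes tested. These calls went both ways, with Tap2 and Parp10 lower under both settings. More of these genes were called when either DMSO library was left out, where a single library stood for DMSO. Those calls went both ways too, as with Znfx1 at -0.89 without DMSO 1 and Samd9l at 1.46 without DMSO 2.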
